A study of Homo sapiens with 6 samples.

Results

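The 10 genes described here are the Notch receptors NOTCH1, NOTCH2, NOTCH3 and NOTCH4, the ligands JAG1, JAG2 and DLL1, and the transcriptional targets HES1, HEY1 and HEY2. They were chosen by name, as the genes with these symbols among the 27754 genes counted in each library, by a rule that uses no measured value, although earlier results of these data were known when the list was made. The libraries came from T47D, a human breast cancer line of luminal type that carries estrogen and progesterone receptors, grown as adherent cells in RPMI medium with fetal bovine serum. Of the 6 libraries, 3 came from cells in normoxia (20% O2) and 3 from cells in hypoxia (0.5% O2 for 48 h), and the labels give no hours for normoxia. The study asked how low oxygen changes the plasticity of breast cancer cells, and its published text names a different oxygen level for this sequencing than these labels do. Both groups are the same unmodified line, and no other line was sequenced in these libraries. The labels do not say whether replicates came from separate cultures, while the study's legend calls its data independent experiments. The p-values measure the spread between these libraries. Each value below starts from the deposited read counts per gene. CPM are counts scaled to library size (counts-per-million) with TMM factors, which scales the libraries to a common composition, and a log2 fold change is always hypoxia over normoxia.

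Notch receptors are membrane proteins that are cut after a ligand on a neighboring cell binds them, first by an ADAM protease and then by gamma-secretase. The released intracellular domain enters the nucleus and joins the DNA-binding protein RBPJ and a Mastermind coactivator, which turns RBPJ from a repressor into an activator of genes such as those of the HES and HEY families of basic helix-loop-helix repressors. In the mammary gland the pathway takes part in luminal cell fate, and several of its genes have been linked to hypoxia-inducible factors in other cells.

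To show control regions of some of these genes, sequences before the start site are printed for the genes HES1, HEY2 and JAG1. HES1 did not pass the test, HEY2 was the gene that fell, and JAG1 was a ligand that rose. The sequences were taken from the RefSeq promoter table (GRCh38.p14, 250 bases before and 50 after each start), which held 8 of the 10 genes (all but DLL1 and HEY1), and were placed on GRCh37, the build of the count files, by exact match. Each is shown 5′ to 3′ along the gene and stops where the first counted exon begins. Capitals mark TGGGAA, the core that RBPJ binds, or its reverse complement in HES1 and HEY2, and mark ACGTG or GCGTG, the core that hypoxia-inducible factors bind, or their reverse complements in JAG1. Matches of ACGTG or GCGTG in HES1 and HEY2 are not marked. HES1 lies on the plus strand (chr3:193853687-193853930), HEY2 on the plus strand (chr6:126070528-126070731) and JAG1 on the minus strand (chr20:10654695-10654897). The short last line is the 30 bases up to the end of a TGGGAA at the HEY2 start site (chr6:126070751-126070780), inside the first counted exon.
HES1: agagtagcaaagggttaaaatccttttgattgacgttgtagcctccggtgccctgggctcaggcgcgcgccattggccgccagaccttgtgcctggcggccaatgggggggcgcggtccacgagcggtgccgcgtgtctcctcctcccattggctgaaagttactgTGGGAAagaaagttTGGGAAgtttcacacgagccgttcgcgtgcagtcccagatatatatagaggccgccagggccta
HEY2: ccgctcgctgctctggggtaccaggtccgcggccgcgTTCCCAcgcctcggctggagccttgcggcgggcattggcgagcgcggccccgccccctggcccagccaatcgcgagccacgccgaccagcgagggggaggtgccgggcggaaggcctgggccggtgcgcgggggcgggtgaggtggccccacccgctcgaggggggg
JAG1: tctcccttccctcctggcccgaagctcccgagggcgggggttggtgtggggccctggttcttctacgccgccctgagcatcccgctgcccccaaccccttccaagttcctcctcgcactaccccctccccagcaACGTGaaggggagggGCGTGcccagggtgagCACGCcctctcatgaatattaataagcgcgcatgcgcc
HEY2 start: ttgcggccgagcagagttgcggcgTGGGAA

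On either strand of these windows, TGGGAA was found in 2 of the 8 genes, HES1 and HEY2, and in 24.0% of 35116 promoters in the table. HES1 held it at -84 to -79 and at -70 to -65 from the start, both along the gene. In HEY2 it stood at -213 to -208 on the opposite strand and across the start itself, from -3 to 3. At least 2 matches were present in 3.80% of all promoters. The longer GTGGGAA, which contains TGGGAA, occurred in the same genes and in 6.25% of all promoters. ACGTG or GCGTG was found in 7 of the 8 genes (all but NOTCH2) and in 48.4% of all promoters. JAG1 held 5 such matches, a number that 1.98% of promoters reached or passed, HEY2 held 4, and HES1 and NOTCH1 held 2 each. JAG2, NOTCH3 and NOTCH4 held 1 each. Those of JAG1 at -40 to -36 and at 40 to 44 lie past the printed stretch. In HEY2 a GCGTG match overlaps each of the TGGGAA matches. These are matches of letters and were not tested as binding sites.

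The libraries held 32989104 to 40943424 counts, except Hypoxia replicate 3 with 89883409, and 3 counts equalled 0.0328 to 0.0969 CPM, a floor that covers counting error only. All 12 luminal markers listed for T47D were above 3 counts in each library, with KRT8, a luminal keratin, at 3408 to 7450 CPM, while ESR1, the estrogen receptor, was at 256 to 302 CPM in normoxia and 74.2 to 75.3 CPM in hypoxia. PGR, the progesterone receptor, was at 910 to 1470 CPM in normoxia and 131 to 186 CPM in hypoxia, and the luminal markers summed to 16026 to 19885 CPM and 11531 to 14558 CPM. They did not move together. By the test described below, ESR1, PGR, GATA3, FOXA1 and XBP1 were lower in hypoxia (adjusted p under 0.05). TFF1 was higher (log2 fold change 1.14), and KRT8, KRT18, KRT19, EPCAM, CDH1 and ERBB3 did not pass. With the replicate number added to the model as a block, KRT8, KRT18 and ERBB3 passed as lower (adjusted p = 7.55e-05, 0.00107 and 0.00755). CDH1 passed as higher (0.00965), where 71.8% of all genes tested passed. Without both libraries numbered 3, KRT8, KRT18, ERBB3 and CDH1 also passed (1.20e-05, 0.000946, 0.00184 and 0.0116), where 71.2% did. KRT19 and EPCAM passed in neither fit. Both libraries numbered 3 stood apart from the others of their group. Their root mean square deviation from the group mean, on log2 of CPM plus 0.5, was 0.236 and 0.218, against 0.125 to 0.169 for the other libraries. The libraries numbered 3 held 395 and 1001 counts of VIM, a mesenchymal filament gene, against 7 to 35 in the others. Of the 12 mesenchymal-like markers, AXL, ANXA1, S100A4 and COL6A1 were higher in hypoxia by the test used for the luminal markers. LGALS1, the largest at 181 to 247 CPM, did not pass, nor did VIM, CAV1, MSN, CD44 and SPARC. With the replicate block CD44 and CAV1 passed as higher (adjusted p = 0.000110 and 0.0411). Without both libraries numbered 3, VIM, MSN and CD44 did (0.000476, 0.000215 and 0.000971). CAV2 and ZEB1 were not tested. The summed CPM of the 12 mesenchymal-like markers was 271 to 284 in normoxia and 392 to 448 in hypoxia. For the 10 endothelial markers it was 3.14 to 3.70 and 5.53 to 9.19 CPM, most of it from ESAM. The other 9 had at most 50 counts in each library, and TEK and CLDN5 had at most 2. The 8 leukocyte markers summed to 10.2 to 13.2 CPM in normoxia and 10.7 to 13.7 CPM in hypoxia, and PTPRC was at 0 counts in normoxia and at 1 to 5 in hypoxia. The part of these markers in the results was not tested, and each result for the 10 genes is also given without both libraries numbered 3. The most similar libraries of a group still differed by more than counting noise (chi-square 6.44 for each degree of freedom), so none was counted as a repeat of another.

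All of the ligands (JAG1, JAG2 and DLL1) and most of the receptors (NOTCH1, NOTCH3 and NOTCH4) had more transcript in hypoxia. The targets went different ways, with HEY1 33.8 times higher, HEY2 3.20 times lower and HES1 not past the test. By the quasi-likelihood test of edgeR, 8 of the 10 genes were called, that is, had an adjusted p under 0.05 over the 15657 genes that passed the filter on low counts, 7 higher and 1 lower, and all 10 had passed the filter. HEY1 (7, 6 and 3 counts in normoxia) and NOTCH4 (12, 8 and 8) passed it only through their hypoxia libraries. They could therefore enter these counts only with a higher level in hypoxia. Over all genes tested, 59.5% were called, 30.4% higher and 29.1% lower. The median log2 fold change of the 10 genes was 0.54, and that of all genes tested was 0.03. CPM of the 3 normoxia and the 3 hypoxia libraries did not overlap in 9 of the 10 genes, and in 67.3% of all genes tested. Without both libraries numbered 3, all 10 genes were called, 8 higher and 2 lower, against 71.2% of all genes tested. Without Normoxia replicate 2, 5 of the 10 were called, against 55.4% of all genes tested. Scaling mattered for the balance of directions, since upper-quartile factors moved the median of all genes to 0.19 and the calls from 4765 higher and 4551 lower to 5972 higher and 3285 lower. Under those factors the same number of Notch genes, 8 of 10, was called. In RNA from whole cultures, fewer cells that express a gene cannot be told apart from less RNA per cell.

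**Figure D1:**
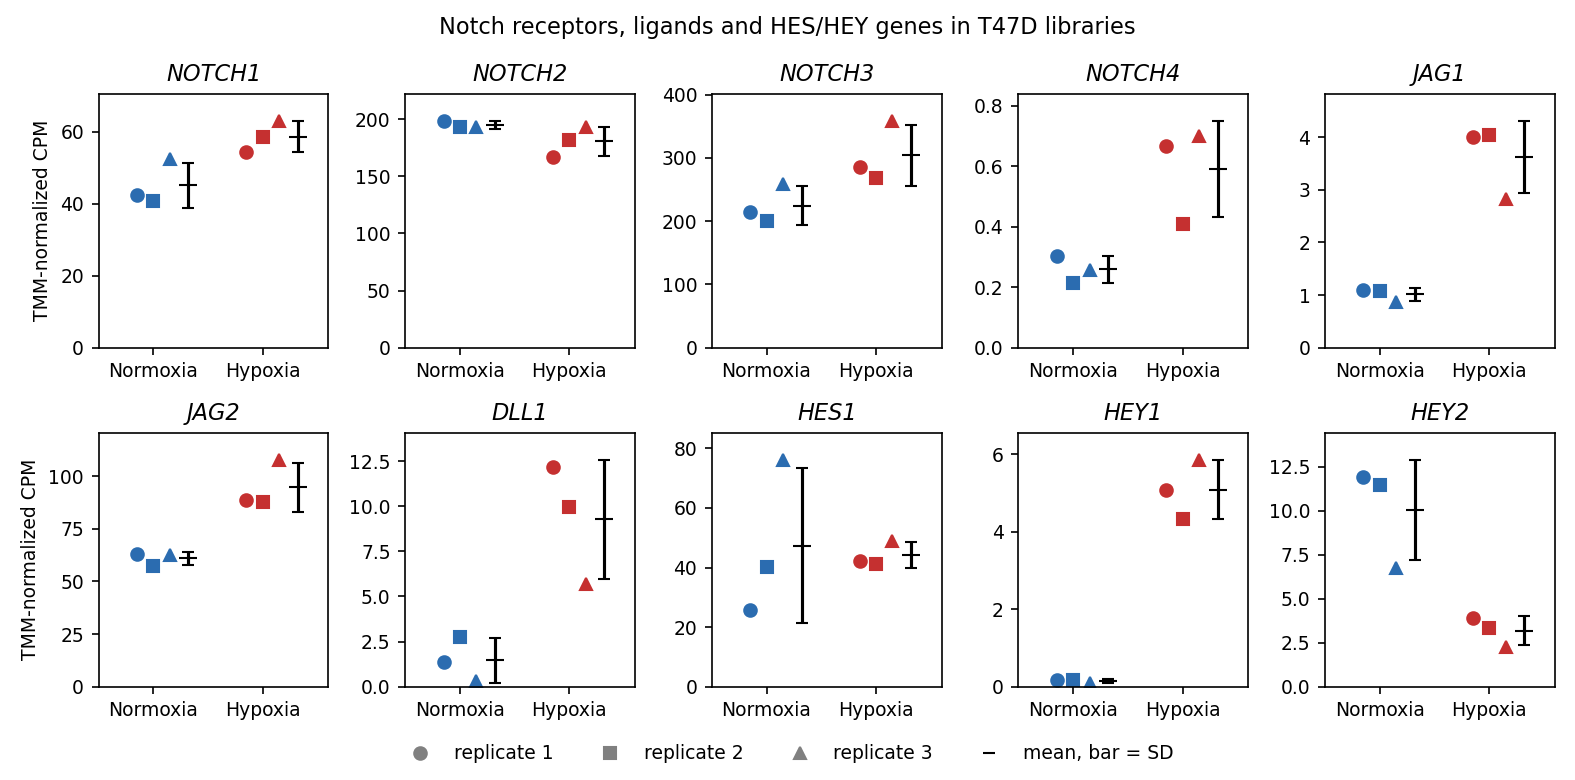
TMM-normalized CPM (linear axes from 0) of the 10 genes in each of the 6 T47D libraries, with normoxia in blue and hypoxia in red. The marker shape gives the replicate number, and the black bar beside each group is its mean ± SD (n = 3). The groups overlap only in HES1, where Normoxia replicate 3 is the highest library at 76.2 CPM.

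Among the receptors, NOTCH3 and NOTCH2 had the most reads. NOTCH3 (chr19:15270444-15311792, minus strand) encodes a receptor best known from vascular smooth muscle and also expressed by breast epithelial cells. It was measured at 214, 201 and 259 CPM in normoxia and at 286, 268 and 359 CPM in hypoxia, replicates 1 to 3 in that order. Every hypoxia library lay above every normoxia library, and replicate 3 was the highest of its group in both. The means were 224.4 ± 30.4 and 304.1 ± 48.1 CPM (SD, n = 3), with a fitted log2 fold change of 0.44 (SE 0.14, adjusted p = 0.0243, edgeR quasi-likelihood test), or 1.36-fold. This call was lost without Normoxia replicate 1 (adjusted p = 0.0876), Normoxia replicate 2 (0.0861) or Hypoxia replicate 3 (0.0512), with log2 fold changes of 0.39, 0.35 and 0.30. Leaving out both libraries numbered 3 gave 0.42. Same-numbered libraries differed by 0.42, 0.41 and 0.47 on the log2 scale. With the replicate number added to the model as a block, the adjusted p of the same test was 0.000114.

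NOTCH1 (chr9:139388885-139440238, minus strand), the receptor most often studied in leukemia and in epithelial differentiation, was at 42.3, 40.9 and 52.3 CPM in normoxia. The hypoxia libraries were at 54.4, 58.5 and 63.1 CPM. The groups did not overlap, although Normoxia replicate 3 came close to Hypoxia replicate 1. From 45.2 ± 6.23 to 58.7 ± 4.32 CPM (SD, n = 3), the log2 fold change was 0.38 (SE 0.11, adjusted p = 0.0211), or 1.30-fold. The adjusted p rose to 0.0958 without Normoxia replicate 1, to 0.0859 without Normoxia replicate 2 and to 0.0547 without Hypoxia replicate 2, at log2 fold changes of 0.32, 0.29 and 0.38. Without both libraries numbered 3 the log2 fold change was 0.45. Under the replicate block NOTCH1 stayed called as higher, at a log2 fold change of 0.38 (adjusted p = 0.00108, same test).

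NOTCH2 (chr1:120454176-120612317, minus strand), a receptor of broad expression, did not pass the test. Its CPM values were 199, 193 and 193 in normoxia and 167, 182 and 193 in hypoxia. Replicate 3 was nearly equal in both groups, at 192.9 and 192.8 CPM, so that the groups only just failed to overlap. The means were 194.9 ± 3.23 and 180.5 ± 12.9 CPM (SD, n = 3). The log2 fold change was -0.11 (95% interval -0.29 to 0.07, adjusted p = 0.241), which turned to 0.05 with upper-quartile factors, and was -0.16 (adjusted p = 0.0303) without both libraries numbered 3. NOTCH2 shares nearly identical exons with NOTCH2NL, and reads that fit both may be lost or split, so its value is uncertain. NOTCH2NL itself went from 37.3 ± 2.95 to 32.2 ± 2.15 CPM (SD, n = 3; log2 fold change -0.21, adjusted p = 0.0836). It was lower in hypoxia in each same-numbered pair, and the replicate block called it lower (adjusted p = 0.0144).

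NOTCH4, a receptor known mainly from endothelium and as a mouse mammary tumor locus, was close to the limit of detection. It had 12, 8 and 8 counts in normoxia and 27, 15 and 64 counts in hypoxia, which is 0.304, 0.215 and 0.258 CPM against 0.667, 0.410 and 0.700 CPM. All hypoxia libraries were higher, and Hypoxia replicate 2 was the nearest to normoxia. The log2 fold change was 1.21 (SE 0.33, adjusted p = 0.0150), or 2.31-fold, and 1.06 without both libraries numbered 3. The call was lost without Normoxia replicate 2 (1.06, adjusted p = 0.0578) or Hypoxia replicate 1 (1.13, adjusted p = 0.0577). The gene was counted on chromosome 6 (chr6:32162620-32191844, minus strand) and on alternative copies of that region, 7 sequences in all, and it shares 98 exon bases with GPSM3 on the same strand, so its count is uncertain. Endothelial markers other than ESAM had at most 50 counts in each library, as given above.

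JAG2 was the ligand with the most reads in both conditions. JAG2 (chr14:105607318-105635161, minus strand), a Jagged-type ligand, was at 62.9, 57.3 and 62.4 CPM in normoxia and at 88.5, 87.5 and 108 CPM in hypoxia. The groups were well separated, and Hypoxia replicate 3 was the highest library. It rose from 60.9 ± 3.11 to 94.6 ± 11.4 CPM (SD, n = 3), with a fitted log2 fold change of 0.64 (SE 0.10, adjusted p = 0.00129), or 1.55-fold, and 0.55 without both libraries numbered 3.

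JAG1 (chr20:10618332-10654694, minus strand), the Jagged ligand linked to poor-outcome breast tumors and the gene of Alagille syndrome, started from a low level. It had 43, 40 and 27 counts in normoxia and 162, 148 and 259 counts in hypoxia, or 1.09, 1.07 and 0.872 CPM against 4.0, 4.05 and 2.83 CPM. Replicate 3 was the lowest library of each group, and the groups stayed far apart. The mean rose from 1.01 ± 0.121 to 3.63 ± 0.688 CPM (SD, n = 3). The log2 fold change was 1.83 (SE 0.23, adjusted p = 0.000436), or 3.55-fold, and 1.90 without both libraries numbered 3.

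DLL1 (chr6:170591294-170599697, minus strand), a Delta-type ligand, had a larger change than JAG1 and JAG2 and also a larger spread between replicates. The normoxia libraries held 53, 103 and 9 counts, and the hypoxia libraries 493, 365 and 521 counts. In CPM these were 1.34, 2.77 and 0.291 against 12.2, 9.98 and 5.70. Replicate 3 was again the lowest of each group, yet the lowest hypoxia library was above the highest normoxia library. From 1.47 ± 1.24 to 9.29 ± 3.29 CPM (SD, n = 3), the log2 fold change was 2.63 (SE 0.60, adjusted p = 0.00630), or 6.19-fold. The same-numbered libraries differed by 3.18, 1.85 and 4.29 on the log2 scale. The fitted log2 fold change was 3.43 without Normoxia replicate 2, 2.16 without Normoxia replicate 3 and 2.45 without both libraries numbered 3, and DLL1 was called in each of these fits.

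Beside these ligands, a list of 5 other ligands held DLL4, DLL3, DLK1, DLK2 and DNER. Of these, 2 passed the filter on low counts and both were called higher, where 59.5% of all genes tested were called. DLL4 (5, 14 and 8 counts in normoxia) and DLK2 (10, 18 and 8) passed the filter only through their hypoxia libraries. Their shared direction therefore follows in part from the filter. DLK2 (chr6:43418090-43424370), a noncanonical ligand related to DLK1, was at 0.253 to 0.484 CPM in normoxia and at 2.27 to 3.83 CPM in hypoxia (log2 fold change 3.09, SE 0.36, adjusted p = 0.000312). DLL4 (chr15:41221531-41231258), the Delta ligand of sprouting vessels, went from 0.127 to 0.376 CPM up to 0.957 to 1.26 CPM (log2 fold change 2.16, SE 0.37, adjusted p = 0.00179). In each of these genes the groups did not overlap. DNER was at 0 counts in the normoxia libraries, where 3 counts would equal 0.0760 to 0.0969 CPM, and at 7, 5 and 12 counts in hypoxia. DLL3 reached no more than 4 counts, and DLK1 had 0 counts in each library. DLK2 shares 74 exon bases with ABCC10 on the opposite strand. The strand setting of the counting is not given in the sources used here, so reads there could come from either gene.

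**Figure D2:**
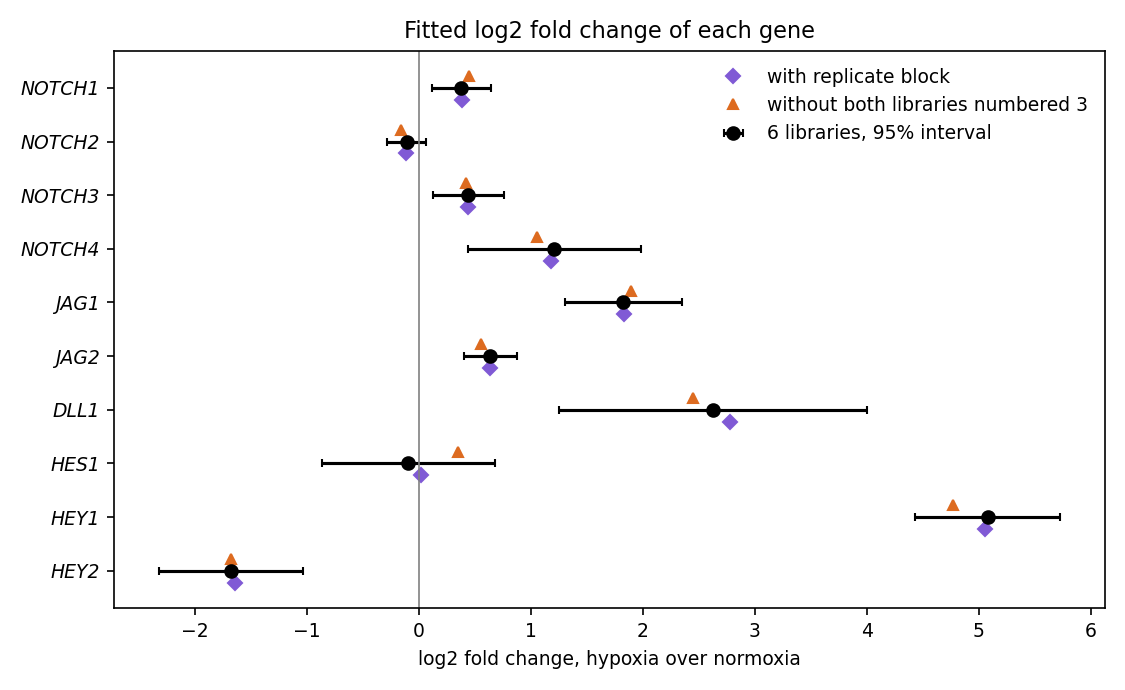
Fitted log2 fold change (hypoxia over normoxia) of each gene in edgeR's quasi-likelihood test, with its 95% interval over 6 libraries (black), with a replicate block (purple) and without both libraries numbered 3 (orange). Over 6 libraries the black intervals of NOTCH2 and HES1 cross 0, while without both libraries numbered 3 NOTCH2 is at -0.16 and HES1 at 0.35.

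The target genes diverged. HEY1 (chr8:80676245-80680098, minus strand), a HES-related repressor induced by Notch and by other signals, was nearly silent in normoxia, with 7, 6 and 3 counts. In hypoxia it had 205, 158 and 535 counts. The CPM were 0.177, 0.161 and 0.0969 against 5.06, 4.32 and 5.85, so that the groups were separated by more than their spread and Normoxia replicate 3 sat at the floor of 3 counts. The log2 fold change was 5.08 (SE 0.28, 95% interval 4.44 to 5.72, adjusted p = 3.35e-05), or 33.8-fold, the largest of the 10 genes. It was 4.77 without both libraries numbered 3.

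HEY2 (chr6:126070732-126082415, plus strand), the close relative of HEY1 known from heart and vessel development, went the other way. It was at 11.9, 11.5 and 6.75 CPM in normoxia and at 3.93, 3.34 and 2.28 CPM in hypoxia. Replicate 3 was the lowest of each group, and every normoxia library was above every hypoxia library. HEY2 fell from 10.0 ± 2.85 to 3.18 ± 0.837 CPM (SD, n = 3), with a fitted log2 fold change of -1.68 (SE 0.28, adjusted p = 0.00151), or 3.20-fold lower. The value without both libraries numbered 3 was also -1.68. Its TGGGAA across the start of the promoter table, printed above, lies inside its first counted exon. Any part of that match in this change was not tested.

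HES1 (chr3:193853931-193856401, plus strand), the classical Notch target and a repressor of differentiation genes, varied more among the normoxia libraries than between the groups. Its CPM values were 25.7, 40.2 and 76.2 in normoxia and 42.1, 41.3 and 49.1 in hypoxia. The groups overlapped, with Normoxia replicates 1 and 3 as the lowest and the highest of the 6 libraries. The means were 47.4 ± 26.0 and 44.2 ± 4.24 CPM (SD, n = 3). The log2 fold change was -0.10 (SE 0.33, 95% interval -0.87 to 0.68, adjusted p = 0.818), and it turned to 0.07 with upper-quartile factors and to 0.02 when the replicate number was added to the model as a block. Same-numbered libraries differed by 0.71, 0.04 and -0.63 on the log2 scale. Without Normoxia replicate 3 the log2 fold change was 0.42 (adjusted p = 0.0803), and without both libraries numbered 3 it was 0.35 (adjusted p = 0.0354), so its direction and its call differed with and without the libraries numbered 3.

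Of 7 other genes of the HES and HEY family, 4 passed the filter and 1 of these was called, against 59.5% of all genes tested. This was HES7, a segmentation clock repressor (chr17:8023908-8027410). HES7 rose from 0.279 to 0.914 CPM to 3.68 to 6.37 CPM (log2 fold change 3.06, SE 0.40, adjusted p = 0.000543). HES4 and HES6, named here after their values were seen, had log2 fold changes of -0.49 (adjusted p = 0.178) and -0.44 (adjusted p = 0.287). With the replicate number as a block both were called lower (adjusted p = 0.000158 and 0.00435), which brought the calls in this list to 3 of 4, where 71.8% of all genes were called. The count was also 3 without Hypoxia replicate 3, where 9915 of 15835 genes tested were called. HES2 was not called, and HES3, HES5 and HEYL reached no more than 2 counts in a library.

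Replicate 3 shifted the 10 genes in no single direction. In both conditions it was the lowest library for JAG1, DLL1 and HEY2, and it was the highest for NOTCH1, NOTCH3 and HES1. For HEY1 and NOTCH2 it was the lowest in normoxia and the highest in hypoxia. Deviations from the group mean were taken on log2 of CPM plus 0.5, which shrinks them at low CPM. DLL1 in normoxia deviated most, by 0.96 in replicate 2 and -1.09 in replicate 3. HES1 in normoxia followed, at -0.73 in replicate 1 and 0.82 in replicate 3. NOTCH2 deviated by at most 0.11 in any library.

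Levels were compared between genes only as CPM per kb of exon, with the lengths of the deposited files (for NOTCH4, of its copy on chromosome 6). In normoxia HES1 (32.4) and NOTCH3 (27.8) had the highest mean level per kb, and their ranges over libraries overlapped. NOTCH2 at 16.5, JAG2 at 10.4, NOTCH1 at 4.85 and HEY2 at 3.76 CPM per kb followed, the last pair with overlapping ranges. DLL1 at 0.443 overlapped JAG1 at 0.169, and HEY1 at 0.0563 overlapped NOTCH4 at 0.0378. All other neighbors in this order had ranges that did not overlap.

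In hypoxia the order was led by NOTCH3 (37.7 CPM per kb), which overlapped HES1 (30.2). JAG2, the third gene at 16.2 CPM per kb, overlapped NOTCH2 at 15.3. Below NOTCH1 (6.30) came DLL1 (2.81), which overlapped HEY1 (1.97), and then HEY2 (1.19), JAG1 (0.606) and NOTCH4 (0.0865), with no overlap between other neighbors. HEY2 thus stood above HEY1 in each normoxia library and below it in each hypoxia library on this scale.

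**Figure D3:**
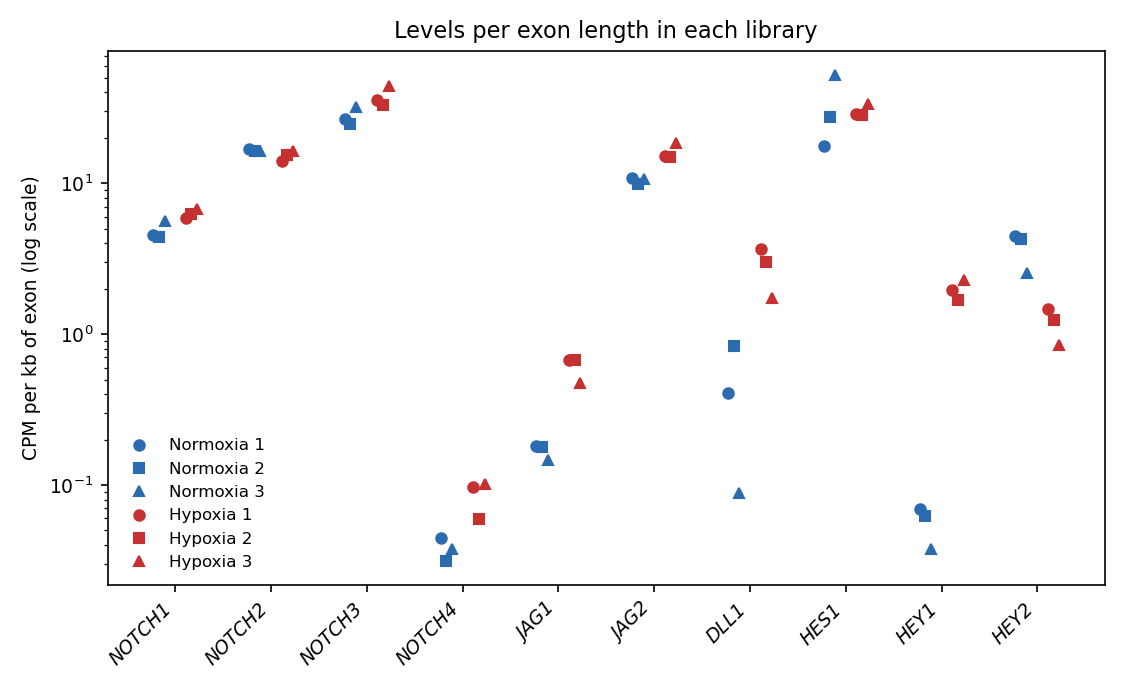
Level of the 10 genes in each of the 6 libraries, as TMM-normalized CPM per kb of exon on a log axis, with normoxia in blue, hypoxia in red and the replicate number as the marker shape. HEY1 moves from a mean of 0.0563 to 1.97 CPM per kb, and HEY2 from 3.76 to 1.19.

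The makeup of each class was also described as shares of summed CPM per kb, with no test. The receptors summed to 49.2 ± 4.34 in normoxia and 59.3 ± 7.17 CPM per kb in hypoxia (SD, n = 3). NOTCH3 made up 56.4% ± 2.59 of that sum in normoxia and 63.3% ± 2.69 in hypoxia, and NOTCH2 33.7% ± 3.06 and 25.9% ± 1.98. NOTCH1 held 9.84% ± 0.493 and 10.7% ± 0.731, and NOTCH4 under 0.2% in each library. The ranges of the groups did not overlap for NOTCH3 and NOTCH2.

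The ligands, taken as JAG1, JAG2, DLL1 and DLL4, summed to 11.1 ± 0.250 CPM per kb in normoxia and 20.0 ± 1.02 in hypoxia (SD, n = 3). JAG2 made up 93.8% ± 3.79 and 81.1% ± 6.08 of the sum, and DLL1 4.0% ± 3.44 and 14.2% ± 5.36. DLL1 thus accounted for most of the share that JAG2 gave up, in all 3 same-numbered pairs. JAG1 held 1.52% ± 0.171 and 3.06% ± 0.705. In the replicate 3 pair the DLL1 share was 0.798% and 8.19%, the lowest of each group.

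Among the 7 HES and HEY genes that passed the filter, the sum was 92.7 ± 33.6 CPM per kb in normoxia and 76.5 ± 19.2 in hypoxia (SD, n = 3). The ranges of the groups overlapped, and the sum was lower in hypoxia in each same-numbered pair. HES4 and HES1 made up most of it in both groups, at 50.4% ± 5.24 and 33.6% ± 7.77 in normoxia and 41.8% ± 4.87 and 40.4% ± 5.56 in hypoxia. HEY1 went from 0.0694% ± 0.0361 to 2.62% ± 0.315, and HES7 from 0.400% ± 0.275 to 3.74% ± 0.432. HEY2 went from 4.62% ± 2.36 to 1.67% ± 0.708. Large fold changes in HEY1 and HES7 therefore concerned genes with a small share of the family's transcripts.

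The other genes of the pathway were taken from lists by role, 75 genes in all, of which 64 passed the filter. Of these, 20 were called higher and 12 lower, or 50% of those tested, against 59.5% of all genes tested, with a median log2 fold change of 0.10. With the replicate number as a block, 47 of the 64 were called, against 71.8% of all genes tested in that fit. Without both libraries numbered 3 it was 48 of 65, against 71.2% of all genes.

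Genes that respond to Notch in some cell types went in both directions, with 1 of 5 tested called higher and 3 lower. That is 80%, against 59.5% of all genes tested. CDKN1A, which encodes the cell cycle inhibitor p21, rose from 21.5 to 25.8 CPM to 129 to 168 CPM (log2 fold change 2.65, SE 0.12, adjusted p = 2.06e-05). BCL2, an inhibitor of apoptosis, fell from 19.6 to 27.2 CPM to 3.58 to 3.85 CPM (log2 fold change -2.63, adjusted p = 3.38e-05). NRARP, a feedback inhibitor that binds the Notch nuclear complex, was at 65.9 to 82.3 CPM in normoxia and 34.4 to 38.5 CPM in hypoxia (log2 fold change -0.95, SE 0.11, adjusted p = 0.000320). CCND1, which encodes cyclin D1, was lower by less (log2 fold change -0.45, adjusted p = 0.0176). This call was lost without Normoxia replicate 1 (adjusted p = 0.0533), Hypoxia replicate 1 (0.0606) or Hypoxia replicate 2 (0.0502), and with upper-quartile factors (0.0710). For MYC, named after its values were seen, the log2 fold change was 0.31 (adjusted p = 0.0731), and the replicate block brought its adjusted p to 0.0427. CDKN1A shares 238 exon bases with DINOL on the opposite strand, so its count is uncertain to that extent.

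Of the 9 genes for cleavage of the receptor, 4 were called higher and 2 lower (66.7%, against 59.5% of all genes tested). ADAM17, a protease that cuts the receptor outside the cell, rose from 43.0 to 46.9 CPM to 59.2 to 68.0 CPM (log2 fold change 0.55, adjusted p = 0.00129). Subunits of gamma-secretase did not move together. PSEN2, a catalytic presenilin, went from 25.7 to 31.1 CPM down to 10.2 to 10.8 CPM (log2 fold change -1.41, SE 0.10, adjusted p = 6.54e-05). NCSTN, the subunit nicastrin, was higher (log2 fold change 0.42, adjusted p = 0.0138), but not past 0.05 without Hypoxia replicate 2 (adjusted p = 0.05003). PSENEN was lower (log2 fold change -0.41, adjusted p = 0.00926). NCSTN and ADAM17 share exon bases with COPA and IAH1 on the opposite strand, 209 and 139 bases.

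In the list for glycosylation of the receptor, 1 of 9 genes was called higher and 2 lower (33.3%, against 59.5% of all genes tested). LFNG, the Fringe enzyme that modifies which ligands a receptor answers to, rose from 4.72 to 8.14 CPM to 10.0 to 11.0 CPM (log2 fold change 0.64, SE 0.20, adjusted p = 0.0224), a call lost without Hypoxia replicate 1 (0.0727) or Hypoxia replicate 2 (0.0506). EOGT and POGLUT1, glycosyltransferases of the EGF-like repeats, had log2 fold changes of -0.52 (adjusted p = 0.00523) and -0.47 (adjusted p = 0.00482). With the replicate number as a block, 6 of the 9 were called, 2 higher and 4 lower, where 71.8% of all genes were called.

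Among 13 tested genes for endocytosis, ubiquitin ligation and turnover, 3 were called higher and 2 lower (38.5%, against 59.5% of all genes tested). DTX3L, a Deltex-type ubiquitin ligase, was at 0.56 on the log2 scale (adjusted p = 0.00162) and shares 185 exon bases with PARP9 on the opposite strand. NUMBL, an adaptor of the Numb type, was at -0.32 (adjusted p = 0.0105), and at -0.16 (adjusted p = 0.0924) with upper-quartile factors. NEURL1B and MIB1 encode ubiquitin ligases that act on ligands. NEURL1B was at -0.64 on the log2 scale (adjusted p = 0.0233), with overlapping groups, since Hypoxia replicate 3 at 73.7 CPM was above Normoxia replicate 3 at 72.6 CPM. Its call was lost without Normoxia replicate 1, Normoxia replicate 2, Hypoxia replicate 1 or Hypoxia replicate 2 (adjusted p of 0.0545, 0.0591, 0.0812 and 0.0751) and with upper-quartile factors (0.0583). MIB1 was at 0.28 (adjusted p = 0.0329), and this call was lost without any 1 of the libraries other than Hypoxia replicate 3 (0.0508 to 0.114). The count of 5 calls in this list was 2 without Normoxia replicate 1, Normoxia replicate 2, Hypoxia replicate 1 or Hypoxia replicate 2, 8 without Hypoxia replicate 3, and 9 under the replicate block (71.8% of all genes). Over all genes tested, the fits that gave 2 called 7782 of 15953, 8886 of 16032, 7471 of 15808 and 7630 of 15854, in that order. The fit without Hypoxia replicate 3 called 9915 of 15835.

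In the nucleus, 4 of 9 genes of the activating complex were called higher and 1 lower (55.6%, against 59.5% of all genes tested). RBPJ, the DNA-binding protein of the pathway, was among those higher, at 59.0 to 62.8 CPM in normoxia and 76.7 to 82.5 CPM in hypoxia (log2 fold change 0.37, SE 0.07, adjusted p = 0.00320). It is named here for its role, after its values were seen. KAT2B, an acetyltransferase, rose from 18.3 to 22.6 CPM to 40.5 to 44.8 CPM (log2 fold change 1.02, adjusted p = 0.000200). MAML2 and MAML3, both Mastermind coactivators, went opposite ways, with log2 fold changes of 0.78 (adjusted p = 0.00422) and -0.42 (adjusted p = 0.0100), the second not called with upper-quartile factors (0.0705). CREBBP, an acetyltransferase, was at 0.46 (adjusted p = 0.00136).

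Of 13 tested corepressor genes, 4 were called higher and 2 lower (46.2%, against 59.5% of all genes tested). TLE1, a Groucho-type corepressor that HES proteins recruit, was higher by 0.47 on the log2 scale (adjusted p = 0.00237), and HDAC1, a histone deacetylase, was at -0.44 (adjusted p = 0.00290). CTBP1 was at -0.40 (adjusted p = 0.0113), but 24.4% of its exon bases are shared with the antisense gene CTBP1-AS. CIR1, which links RBPJ to deacetylases, was at 0.39 (adjusted p = 0.0274) and was not called without Normoxia replicate 1, Normoxia replicate 3, Hypoxia replicate 1 or Hypoxia replicate 2 (0.0581 to 0.1000). The count of 6 calls was 3 without Normoxia replicate 1, Hypoxia replicate 1 or Hypoxia replicate 2. Over all genes tested, these fits called 7782 of 15953, 7471 of 15808 and 7630 of 15854.

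**Figure D4:**
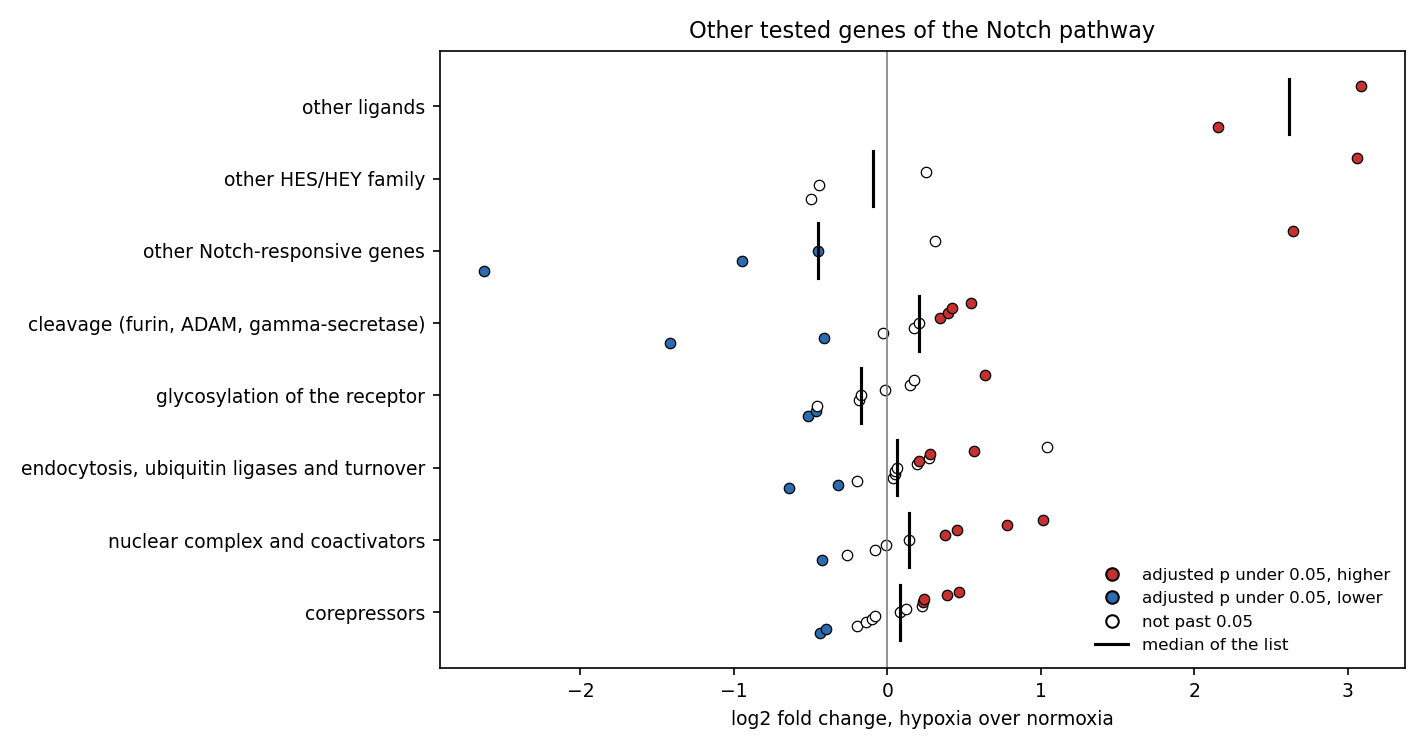
Log2 fold change (hypoxia over normoxia) of the 64 tested genes in 8 role lists of the Notch pathway, with 1 point a gene and a vertical line at the median of each list. Filled points had an adjusted p under 0.05 by the quasi-likelihood test of edgeR (20 higher in red, 12 lower in blue), and open points did not.

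For the gene of the 10 with the largest change in each role, the tested genes with the most similar pattern were listed, as a description. The measure was the Pearson correlation of log2 of CPM plus 0.5 over the 6 libraries. That 0.5 is above the normoxia CPM of NOTCH4 (0.215 to 0.304) and of HEY1 (0.0969 to 0.177). The 3 highest were taken from all tested genes over 6 libraries, so high values follow in part from that choice. All points share the same libraries. For NOTCH4 these were SNAI3 (0.994), ATP2B1 (0.984) and NECTIN3 (0.983). TIA1 (0.999), ZNF501 (0.998) and UNC5A (0.997) were nearest to DLL1. HEY1 was nearest to TGFBI, LOC284454 and GPAT3, with correlations of 0.9995, 0.9995 and 0.9994.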

How the data were processed

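RNA-seq of T47D cells gave 6 libraries, 3 from normoxia and 3 from hypoxia, grouped and numbered by their labels. The authors prepared stranded mRNA libraries, trimmed adapters with Skewer, aligned reads to GRCh37 (hg19) with STAR 2.5.2a and deposited raw read counts per RefSeq gene from featureCounts 1.5.1 (versions from the submitters' processing notes). How the counting treated strand and multiply aligned reads is not given in the sources used here, so counts of overlapping or near-identical genes are uncertain.

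Counts were tested in R 4.3.3 with edgeR 4.0.16 (limma 3.58.1): genes were kept by filterByExpr (minimum count 10, minimum total 15), TMM normalization, the quasi-likelihood test with condition as the only term over all 6 libraries, and Benjamini-Hochberg adjustment over all 15657 genes tested, at 0.05. Alternatives were the exact test of edgeR, as in the study's methods, DESeq2 1.42.0, RLE and upper-quartile factors, no filter, a replicate block, each library left out, and both libraries numbered 3 left out. Levels per kb divide CPM by the deposited exon length. Motif matches were searched as exact letters on both strands. The code was tested on simulated data, and plots were drawn with matplotlib 3.10.9.

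Deviations from the group means (on log2 of CPM plus 0.5) of same-numbered libraries correlated across genes (0.426, 0.495 and 0.624 for numbers 1, 2 and 3). Libraries of different numbers were not compared. A shift shared by both libraries numbered 3 could by itself give positive values for each number, so these correlations cannot decide whether the libraries are pairs. The labels give only the numbers, and the study's methods speak of paired samples, so the number was used as a block in an alternative fit. Blocked values are given where they change a call, and for NOTCH1, NOTCH3 and HES1. The genes and lists were chosen with earlier results of these data known. Besides the 10 genes, the text names up to 4 called genes per role list with the largest absolute log2 fold change, the 3 genes most correlated with the most changed gene of each role, and defining markers. Other genes are named after their values were seen. Of 423 exon ends of the 10 genes, 408 (96.5%) were also in the GENCODE annotation of GRCh37.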

Additional observations from a re-analysis of the deposited data

How the results depend on the processing

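With 1 library left out, or both numbered 3, the number of Notch genes called ranged from 5 (without Normoxia replicate 2) to 10 (without both libraries numbered 3), and those called among the other pathway genes from 22 to 48. Over all genes tested, the calls in these fits ranged from 7471 of 15808 to 11257 of 15803. The log2 fold changes ranged over these settings from 0.29 to 0.49 for NOTCH1, 0.30 to 0.55 for NOTCH3, 1.05 to 1.39 for NOTCH4, -0.16 to -0.060 for NOTCH2 and -0.41 to 0.42 for HES1, which reversed to 0.35 without both libraries numbered 3. For JAG1, JAG2, DLL1, HEY1 and HEY2, the direction and the call were the same under every alternative run, with ranges under left-out libraries of 1.73 to 1.98, 0.53 to 0.69, 2.16 to 3.43, 4.77 to 5.24 and -1.90 to -1.47. Under DESeq2, edgeR's exact test, RLE factors, upper-quartile factors and no filter, 8 of the 10 were called each time. The replicate block changed no call of the 10 genes, moved HES1 from -0.10 to 0.02 (adjusted p = 0.938), and raised the calls over all genes tested from 59.5% to 71.8%, from 1 to 3 in the other HES and HEY genes, from 3 to 6 in glycosylation and from 5 to 9 in endocytosis. Without both libraries numbered 3 these counts were 3, 7 and 9. The causes were not tested. Of the fold changes under the alternatives of the other genes named by rule in the role lists, 315 kept direction and call and 23 kept direction but lost the call. NOTCH4, HEY1 in normoxia and DLL1 in Normoxia replicate 3 rest on few counts, which limits their precision.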
